A study of Mus musculus with 22 samples.

Results

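The levels of 5hmC and 5mC were compared along the autosomes of mouse cerebellum. All tissues came from C57BL/6 mice at 8 weeks of age, stated in the study's methods to be female, with no other treatment or allele, and the cerebellum was taken whole, so each level is an average over all its cell types. TAB-seq, which reads 5hmC, had 3 cerebellum libraries, and oxBS-seq, which reads 5mC, had 2. The study's methods state that replicates came from independent mice. Neither they nor the labels tie a TAB-seq library to an oxBS-seq library of the same mouse. The 5hmC levels were given per 1 Mb bin and the 5mC levels per 100 kb bin, which were averaged into the same 1 Mb bins. Of 2641 bins of 1 Mb in the tables, 2470 lay on the 19 autosomes, and the 2413 that carried both levels in every library were used. The 57 autosomal bins left out were listed at 0 in the TAB-seq tables. Cortex and olfactory bulb, with 3 TAB-seq libraries each and 3 and 2 oxBS-seq libraries, served only for comparison.

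In mammals DNA methyltransferases place a methyl group on cytosine, mostly at CpG sites, and the TET enzymes oxidize 5mC to 5hmC. A given cytosine of a given DNA strand is unmodified, methylated or hydroxymethylated, so over a bin the share that is neither 5hmC nor 5mC, here called the unmodified rest, is 1 minus both levels. 5hmC is abundant in neurons, where it lies mainly in the bodies of genes, while CpG islands at gene starts are usually unmodified. In cerebellum the granule neuron is the most numerous cell, beside Purkinje cells, Bergmann glia, oligodendrocytes and others.

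Windows of 300 bases were read from the GRCm38 reference, the build of the bins, to show how densely CpG sites lie in some of the extreme bins. Each but the last is the window nearest the middle of its bin that has the bin's average number of CpG sites and holds no exon and no masked repeat. The last was taken for its number of CpG sites. Each is on the plus strand, and capitals mark the CpG sites.
A bin among the 5 with the highest 5hmC levels, in Ntm (chr9:29499913-29500212, 2 CpG sites): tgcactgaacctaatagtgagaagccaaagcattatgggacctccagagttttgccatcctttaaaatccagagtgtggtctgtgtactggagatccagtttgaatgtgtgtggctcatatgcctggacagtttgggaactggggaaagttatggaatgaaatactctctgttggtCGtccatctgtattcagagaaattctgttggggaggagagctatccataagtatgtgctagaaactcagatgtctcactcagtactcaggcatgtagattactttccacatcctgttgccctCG
The bin with the lowest 5hmC level, between genes near Klra1 (chr6:130504907-130505206, 1 CpG site): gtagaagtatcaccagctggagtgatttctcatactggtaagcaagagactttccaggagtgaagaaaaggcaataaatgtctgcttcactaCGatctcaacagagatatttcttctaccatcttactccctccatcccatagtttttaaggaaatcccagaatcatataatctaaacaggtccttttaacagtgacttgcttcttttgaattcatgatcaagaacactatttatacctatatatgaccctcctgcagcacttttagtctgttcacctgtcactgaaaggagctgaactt
The bin with the highest 5mC level, outside genes (chr4:71502827-71503126, 1 CpG site): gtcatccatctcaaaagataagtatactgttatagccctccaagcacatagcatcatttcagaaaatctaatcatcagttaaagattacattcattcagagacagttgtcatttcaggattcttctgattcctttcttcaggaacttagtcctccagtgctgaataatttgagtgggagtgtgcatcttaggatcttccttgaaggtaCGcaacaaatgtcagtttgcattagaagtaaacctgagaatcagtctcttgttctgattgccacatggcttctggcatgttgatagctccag
The bin with the highest unmodified rest, in an intron of Onecut3 (chr10:80500590-80500889, 6 CpG sites): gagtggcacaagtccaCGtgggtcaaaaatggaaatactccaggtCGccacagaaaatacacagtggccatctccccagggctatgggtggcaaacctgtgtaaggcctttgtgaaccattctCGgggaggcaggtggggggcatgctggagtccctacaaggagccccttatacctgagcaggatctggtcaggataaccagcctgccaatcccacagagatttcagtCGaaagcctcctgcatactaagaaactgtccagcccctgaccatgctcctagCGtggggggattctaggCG
The bin with the lowest unmodified rest, in an intron of Auts2 (chr5:132502723-132503022, 2 CpG sites): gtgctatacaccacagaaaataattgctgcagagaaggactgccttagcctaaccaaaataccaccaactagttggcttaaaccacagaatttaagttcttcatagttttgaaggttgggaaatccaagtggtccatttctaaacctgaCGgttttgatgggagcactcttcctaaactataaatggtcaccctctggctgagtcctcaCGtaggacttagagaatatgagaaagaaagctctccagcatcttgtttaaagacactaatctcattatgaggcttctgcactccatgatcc
The window richest in CpG sites of the bin with the highest unmodified rest, which ends 1 base before the start of the casein kinase gene Csnk1g2 (chr10:80622538-80622837, 52 CpG sites): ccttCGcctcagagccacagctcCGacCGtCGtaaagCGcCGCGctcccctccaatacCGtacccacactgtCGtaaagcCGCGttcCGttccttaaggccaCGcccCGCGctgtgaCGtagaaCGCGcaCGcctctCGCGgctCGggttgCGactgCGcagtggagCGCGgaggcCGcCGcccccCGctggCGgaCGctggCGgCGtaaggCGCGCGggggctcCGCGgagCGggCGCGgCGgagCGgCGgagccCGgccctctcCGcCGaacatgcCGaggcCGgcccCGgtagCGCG
The sequences differ in the density of the sites that can carry either mark. The bin around Ntm held 7.7 CpG sites per kb and the bin around Csnk1g2 held 20, against a median of 8.08 over all bins. A level is given for a whole bin and not for a window, and the reference has 7696 and 20046 CpG sites in these 1 Mb bins.

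The libraries of each assay were close to each other. Across the 2413 bins, Pearson's r was between 0.995 and 0.996 for the pairs of TAB-seq libraries and 0.996 for the 2 oxBS-seq libraries. The deposited values were fractions without read counts or coverage. The depth behind a bin is therefore unknown, and the SD between libraries is the error given. Sequencing batches or dates are not in the labels used here. The tissue label was checked on the 5mC level of the 100 kb bins that marker genes overlap. Of 14 genes of granule neurons, 11 lay in every cerebellum library below every cortex and olfactory bulb library, against 4.33% of all 24011 autosomal bins of 100 kb. At Fat2, a protocadherin of granule neurons, the 5mC level was 0.455 ± 0.0241 (SD, n = 2) in cerebellum, 0.681 ± 0.0233 (SD, n = 3) in cortex and 0.727 ± 0.00685 (SD, n = 2) in olfactory bulb. The exceptions were Gabra6, Tiam1 and Barhl1, and Barhl1 lay above every other library. Of 12 genes of Purkinje cells 1 lay below, and of 8 genes of Bergmann glia and astrocytes, 8 of oligodendrocytes and 10 of forebrain neurons none did. The forebrain list had 6 of 10 genes above every library of the other tissues, near the 60.2% of all 100 kb bins. These counts are of genes, and some genes had the same 100 kb level. They were Zic1 and Zic4, Olig1 and Olig2, Dlx1 and Dlx2, and Dlx5 and Dlx6, so the counts are not of separate bins. In a whole tissue, a change in the share of a cell type and a change of the level within its cells cannot be told apart.

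On average over the autosomes, most cytosines at CpG sites were read as 5mC, and the unmodified rest exceeded 5hmC. The mean 5hmC level was 0.0978, 0.0974 and 0.101 in the 3 TAB-seq libraries, or 0.0987 ± 0.00183 (SD, n = 3). The mean 5mC level was 0.741 and 0.724 in the 2 oxBS-seq libraries, or 0.732 ± 0.0115 (SD, n = 2). The unmodified rest was thus 0.169 ± 0.0116, where the error is the root of the summed squared SDs, and 5hmC made up 11.9% of both modifications together, with 11.6% to 12.2% over the 6 pairings of 1 library of each assay.

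5hmC varied far more between bins, in relative terms, than 5mC. The 5hmC level ran from 0.0134 to 0.284, a 21.2-fold range, and the 95th percentile of bins (0.172) was 4.88 times the 5th (0.0352). The 5mC level ran from 0.421 to 0.863 (to 0.843 in bins with at least 8 of their 10 bins of 100 kb), with a ratio of 1.31 between the same percentiles (0.812 and 0.619). The unmodified rest ran from 0.0399 to 0.447, with a ratio of 2.57. On the fraction scale the order was another, since the SD over bins was 0.0426 for 5hmC, 0.0608 for 5mC and 0.0496 for the rest. Of both modifications together, 5hmC made up from 1.80% to 31.5% of a bin.

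Bins rich in 5hmC tended to be poor in 5mC, but the exchange was not complete. Across bins, r between 5hmC and 5mC was -0.599 to -0.577 and Spearman's rho -0.646 to -0.629 over the 6 pairings of libraries, given as a description over 2413 bins that share gene content and CpG density and whose neighbours resemble each other (r of adjacent bins 0.426 to 0.432 for 5hmC and 0.586 to 0.587 for 5mC). Per unit of 5hmC gained, 5mC was lower by a slope of -0.866 to -0.816. The sum of both varied less than it would if the marks were unrelated, with an SD of 0.0494 to 0.0502 against 0.0737 to 0.0749. The correlation of the mean levels was negative on 19 of 19 chromosomes, from -0.729 to -0.348. The relation depended on how much of the bin genes covered. In bins with a gene cover of at most 0.05, r was 0.0864 to 0.233. From 0.05 to 0.25 it was -0.0165 to 0.0188, from 0.25 to 0.5 it was -0.346 to -0.328, from 0.5 to 0.75 it was -0.526 to -0.502, and in bins covered over at least 0.95 it was -0.593 to -0.566. Where genes were scarce, then, bins with more 5hmC did not have less 5mC.

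**Figure D1:**
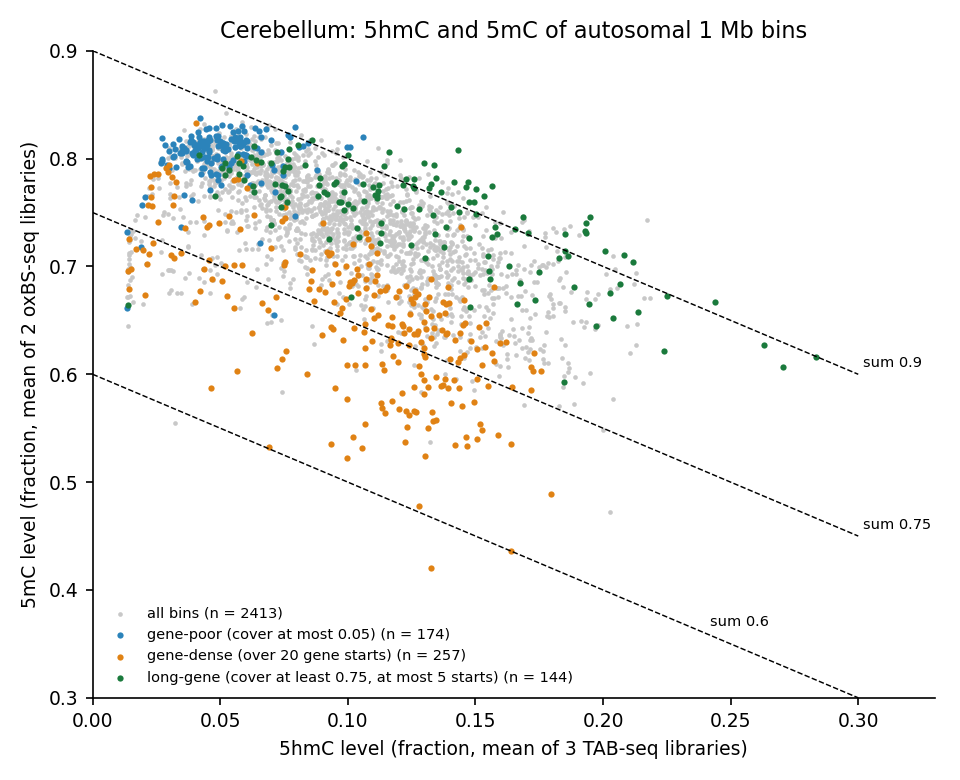
Each point is an autosomal 1 Mb bin of cerebellum, with its 5hmC level (fraction, mean of 3 TAB-seq libraries) on the x axis and its 5mC level (fraction, mean of 2 oxBS-seq libraries) on the y axis, and dashed lines join points with the same sum. Gene-poor bins (174) lie at the upper left, gene-dense bins (257) at lower sums, and long-gene bins (144) extend along high sums to the highest 5hmC level of 0.284.

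Each bin was compared with the autosomal mean of the same library in limma, with both assays in 1 fit and the sum as a contrast, at a Benjamini-Hochberg adjusted p-value under 0.05. Because replicates agreed closely, 94.4% of bins differed from the mean in 5hmC, 94.2% in 5mC and 90.2% in the sum. The 5hmC level was higher in 1107 bins (45.9%) and lower in 1171 (48.5%). The 5mC level was higher in 1274 (52.8%) and lower in 999 (41.4%), and the sum was higher in 1332 (55.2%) and lower in 845 (35%), where a lower sum is a higher unmodified rest. The standard error was the same for every bin, 0.00149 for 5hmC, 0.00183 for 5mC and 0.00236 for the sum, so a bin's p-value does not reflect its own spread. With a deviation of more than 0.02 required, 731 bins (30.3%) were higher and 814 (33.7%) lower in 5hmC, 964 (40%) higher and 739 (30.6%) lower in 5mC, and 783 (32.4%) higher and 574 (23.8%) lower in the sum.

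Combining the calls gave 4 kinds of bin. In 916 bins (38%) 5hmC was lower and 5mC higher than the mean, and in 748 (31%) 5hmC was higher and 5mC lower. Both were higher in 281 (11.6%) and both lower in 205 (8.5%). The kinds differed in their genes. Of 174 gene-poor bins, with a cover of at most 0.05, 164 had lower 5hmC and higher 5mC. Of 257 gene-dense bins, with more than 20 starts of protein-coding genes, 151 had higher 5hmC and lower 5mC, 55 had both lower and 0 had both higher. The 144 long-gene bins, covered over at least 0.75 with at most 5 starts, were spread over 3 of the kinds. Both were higher in 44, 5hmC was lower and 5mC higher in 42, and 5hmC was higher and 5mC lower in 37. In 2 of them both were lower. The 281 bins with both higher had a mean 5hmC level of 0.122 ± 0.00197 (SD, n = 3), a 5mC level of 0.759 ± 0.0118 (SD, n = 2) and a rest of 0.119 ± 0.0120. In the 205 bins with both lower the levels were 0.0606 ± 0.00164 (SD, n = 3), 0.692 ± 0.0110 (SD, n = 2) and 0.247 ± 0.0111, which are described only, since the calls chose these bins.

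5hmC rose with the share of the bin that genes cover, 5mC fell up to a cover of 0.95, and the unmodified rest changed little. Over the 6 classes of gene cover, the mean 5hmC level was 0.0501, 0.0652, 0.0888, 0.114, 0.131 and 0.135, with SDs between 0.00118 and 0.00249 (n = 3). The mean 5mC level was 0.803, 0.775, 0.742, 0.707, 0.701 and 0.728, with SDs between 0.0108 and 0.0126 (n = 2). The rest was 0.147, 0.159, 0.169, 0.178, 0.167 and 0.137. Genic bins, with a cover of at least 0.95, thus exceeded gene-poor bins in 5hmC by 0.0856, 0.0827 and 0.0858 in the 3 libraries, or 0.0847 ± 0.00176 (SD, n = 3), and their level was 2.69 ± 0.0743 times as high. In 5mC they were below gene-poor bins by -0.0728 and -0.0754 in the 2 libraries, or -0.0741 ± 0.00183 (SD, n = 2). The rest differed by -0.0106 ± 0.00254. Each difference had the same sign in every library, and no test was made with so few. Taking medians instead of means over bins, the 5mC difference was -0.0436 and that of the rest -0.0367, while the 5hmC difference was 0.0803.

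Across classes by the number of gene starts, 5mC fell and the unmodified rest rose. With 0, 1 to 5, 6 to 20, 21 to 40 and over 40 starts of protein-coding genes, the mean 5mC level was 0.798, 0.759, 0.708, 0.659 and 0.624, and the rest was 0.138, 0.145, 0.182, 0.236 and 0.284. The 5hmC level was 0.0647, 0.0963, 0.110, 0.105 and 0.0927, highest in the middle class. Long-gene bins (0.126 ± 0.00201 of 5hmC, 0.747 ± 0.0123 of 5mC, 0.127 ± 0.0125 unmodified) had more of both modifications than gene-dense bins (0.103 ± 0.00235, 0.652 ± 0.0112 and 0.245 ± 0.0115). The 5hmC difference was 0.0243, 0.0224 and 0.0224 in the 3 libraries, or 0.0231 ± 0.00110 (SD, n = 3), and the 5mC difference 0.0957 and 0.0942, or 0.0949 ± 0.00109 (SD, n = 2), so the rest was lower by -0.118 ± 0.00155. Taking medians over bins, the 5hmC difference was 0.00981.
In a straight-line fit to each library, gene cover accounted for 34.1% to 34.7% of the variance of 5hmC over bins, 24.9% to 25.5% of that of 5mC and 0.929% to 1.62% of that of the sum. The number of gene starts accounted for 1.94% to 2.38%, 44.2% to 44.9% and 47.1% to 48.5%. CpG density accounted for 32.0% to 34.1%, 60.9% to 61.9% and 19.9% to 23.3%. For 5hmC, cover and CpG density thus accounted for like shares, and starts for more of the sum than either. In rank, 5hmC followed the share of masked repeats (rho -0.669 to -0.659), CpG density (0.637 to 0.651) and GC content (0.618 to 0.631) more closely than cover (0.592 to 0.598). These features vary together across bins, and the shares are a description.
Within a 1 Mb bin, the 5mC level also varied between its bins of 100 kb. Its SD had a median of 0.0163 over gene-poor bins, 0.0416 over long-gene bins and 0.0801 over gene-dense bins, and the lowest 100 kb bin had a median level of 0.779, 0.667 and 0.507.

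**Figure D2:**
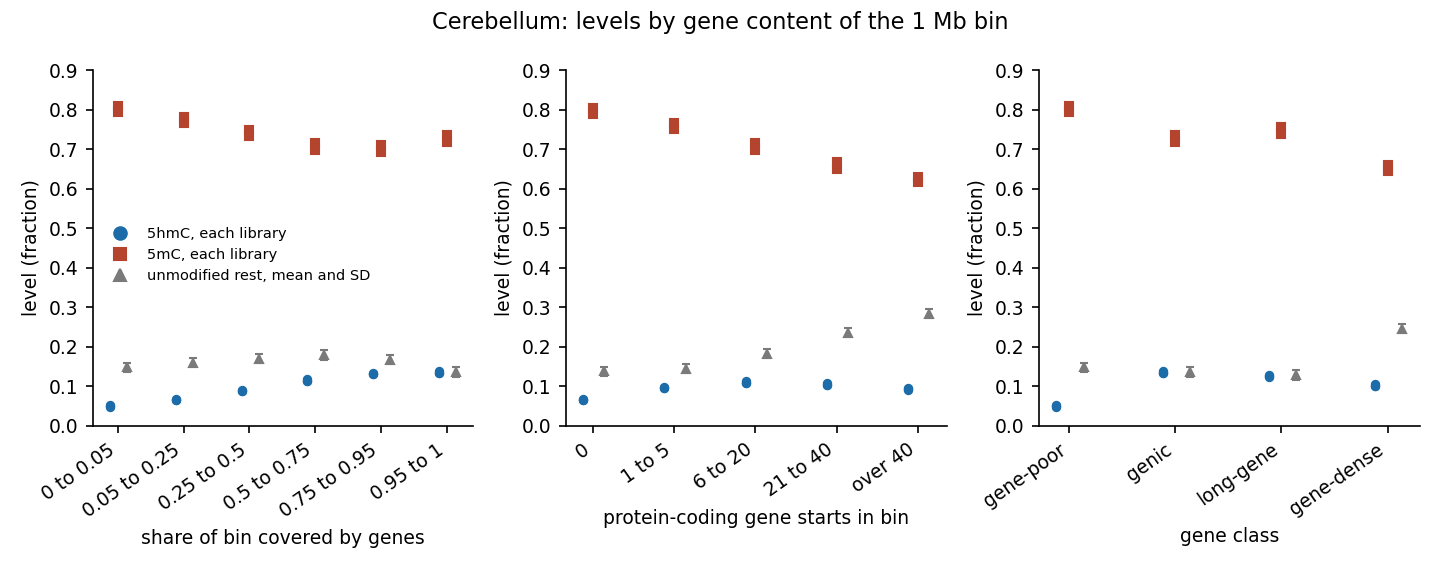
Mean level (fraction) over the autosomal 1 Mb bins of each class in cerebellum, by the share of the bin covered by genes, by the number of protein-coding gene starts, and in the 4 gene classes. Circles are the 3 TAB-seq libraries (5hmC), squares the 2 oxBS-seq libraries (5mC), and triangles the unmodified rest with its SD. 5hmC climbs from 0.0501 to 0.135 with gene cover, and the rest climbs from 0.138 to 0.284 with gene starts.

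Chromosomes differed less than bins, with 2.54% of the variance of 5hmC, 6.88% of that of 5mC and 9.12% of that of the sum lying between chromosomes. The levels of all 19 chromosomes differed from the autosomal mean in each of the 3 measures in limma (100% called), with 10 higher (52.6%) and 9 lower (47.4%) in each. The standard error was again the same for every chromosome, 0.000218 for 5hmC, 0.000267 for 5mC and 0.000345 for the sum. A chromosome's p-value thus does not reflect its own spread. Chromosome 11 had the highest 5hmC level, 0.110, 0.110 and 0.114 in the 3 libraries, or 0.111 ± 0.00240 (SD, n = 3), followed by chromosome 9 (0.111 ± 0.00212). Chromosomes 7 (0.0878 ± 0.00196) and 3 (0.0886 ± 0.00167) had the lowest. In every library, chromosomes 11 and 9 lay above the autosomal mean and chromosomes 7 and 3 below it.
The order by 5mC was not the reverse of that by 5hmC. The 5mC level was lowest on chromosome 11 (0.705 and 0.688, mean 0.697 ± 0.0118) and chromosome 7 (0.711 and 0.695, mean 0.703 ± 0.0111), and highest on chromosomes 3 (0.754 ± 0.0113) and 14 (0.752 ± 0.0119, n = 2 each). Chromosome 7 thus had low levels of both modifications and the highest unmodified rest of the autosomes, 0.209 ± 0.0112, with chromosome 19 next at 0.193 ± 0.0116. Chromosomes 16 (0.147 ± 0.0125) and 18 (0.154 ± 0.0111) had the lowest rest. Chromosomes 7 and 11 also had the most gene starts, on average 14.1 and 13.8 per bin against 8.62 over all bins, and chromosomes 16 and 18 had 6.92 and 5.83. Few starts did not always go with a low rest, since chromosome 12 had the fewest, 5.45, at a rest of 0.166 ± 0.0118, and chromosomes 1 (6.26) and 3 (6.39) had fewer than chromosome 16 at a higher rest, 0.155 and 0.158.
The 5hmC deviation of chromosome 17 was the smallest, 0.000517 (limma adjusted p = 0.0211). It was no longer called without TAB-seq replicate 2 or 3 or either oxBS-seq replicate, with adjusted p-values of 0.00164 to 0.365 over the libraries left out. Nor was it called in bins with at least 8 of their bins of 100 kb (0.000269, adjusted p = 0.208). Weighting bins by CpG sites raised it to 0.00341 (adjusted p = 2.46e-21), and it turned to -0.000652 once a linear term in gene cover was taken out. The same step turned the 5mC deviation of chromosome 8 and no other sign among the 3 measures. Weighting bins by their CpG sites turned the sum of chromosome 13.

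**Figure D3:**
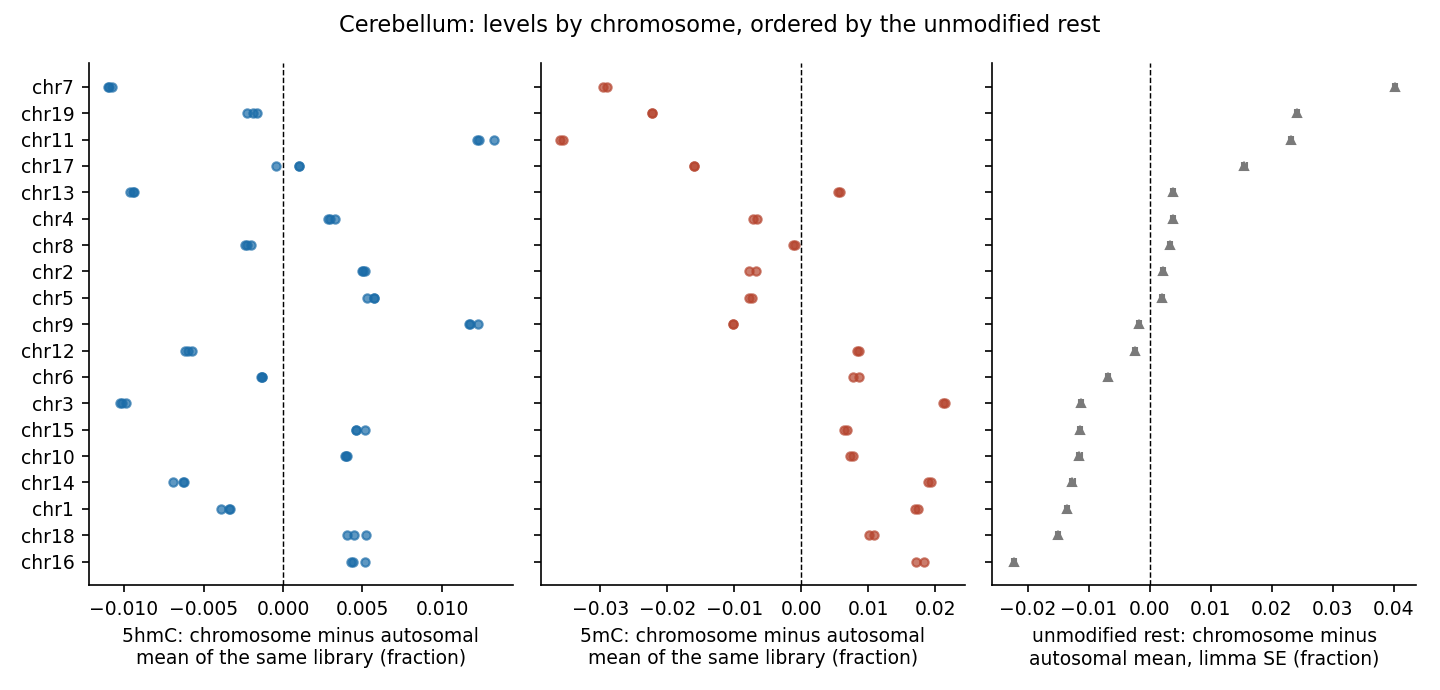
Deviation of the mean level of each autosome from the autosomal mean (fraction) in cerebellum, per library for 5hmC and 5mC and with the limma standard error for the unmodified rest, with chromosomes ordered by the rest. Chromosome 7 lies low in both modifications, and chromosome 11 lies high in 5hmC and lowest in 5mC.

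The bins named next are the 5 highest and 5 lowest in a measure among those with at least 8 of their 10 bins of 100 kb, so their own level is a description with no test. The 5 bins with the highest 5hmC levels each lay mostly inside 1 long gene. Of these, 4 are described. In chr9:29000001-30000000, with Ntm, a neuronal adhesion molecule of the IgLON family, 5hmC was 0.271, 0.269 and 0.272. In chr16:6000001-7000000, with Rbfox1, a neuronal splicing regulator, it was 0.259, 0.263 and 0.268. Genes covered 96.3% and 100% of these bins.
In chr14:124000001-124902244, with Fgf14, a modulator of sodium channels, 5hmC was 0.249, 0.238 and 0.244, and in chr13:109000001-110000000, with the cAMP phosphodiesterase Pde4d, it was 0.228, 0.219 and 0.228. The Pde4d bin overlapped with the bin just outside the list, chr17:5000001-6000000, with 0.223, 0.218 and 0.231, and the other bins described lay above it in every library. The 5mC levels of the 4 bins, 0.607 to 0.673, were below the mean of 0.732, and their rest, 0.0894 to 0.122, was below the mean of 0.169. The 5hmC level of the Ntm, Rbfox1 and Fgf14 bins was lower in cortex (0.253, 0.227 and 0.177) and in olfactory bulb (0.261, 0.221 and 0.165), although the autosomal mean was higher there (0.169 and 0.150). That of the Pde4d bin was 0.225 in cerebellum and higher in both others, 0.232 and 0.245. The bins were chosen on cerebellum, so this is a description. Taking the 5 highest bins of TAB-seq replicate 1 gave the same 5 bins, with a mean of 0.258 in that library and 0.254 and 0.260 in the others.
In 29 bins (1.2%) the 5hmC level was at least 0.2, a limit also set after the values were seen. They lay on 16 autosomes, 13 of them were long-gene bins and 0 were gene-dense or gene-poor. The 29 bins were chosen on cerebellum, which put its mean above the limit, so the tissues are set side by side as a description only. Their mean 5hmC level was 0.217 ± 0.00334 (SD, n = 3) in cerebellum, 0.219 in cortex and 0.218 in olfactory bulb. The autosomal means of these tissues were 0.0987, 0.169 and 0.150. The mean 5mC level of the 29 bins was 0.659, 0.634 and 0.657.

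The 5 bins with the lowest 5hmC levels differed in their genes, and 4 of them held related genes or gene segments. In chr6:130000001-131000000, with the Ly49 receptor genes Klra1, Klra4 and Klra7 of natural killer cells, 5hmC was 0.0134 ± 0.00121. In chr7:32000001-33000000, with secretoglobin genes such as Scgb2b15, it was 0.0134 ± 0.00204. In chr12:114000001-115000000, with 49 variable segments of the immunoglobulin heavy chain, it was 0.0135 ± 0.00196 (SD, n = 3 each). The Skint5 and Skint6 bin, chr4:113000001-114000000, and the AA792892 bin, chr5:94000001-95000000, both had 0.0137.
The order among these bins was not resolved. The next bin, chr7:9000001-10000000 with vomeronasal receptor genes, was at 0.0139, and the 5 lowest bins of TAB-seq replicate 1 shared 2 with the list, with a mean of 0.0109 in that library and 0.0160 and 0.0151 in the others. The 5mC levels of the 5 bins, 0.661 to 0.732, were at or below the mean, so the rest was 0.255 to 0.325. Their sequence was 45.5% to 57.6% masked repeats, against a median of 31.8% over all bins.
With a limit of 0.02, set after the values were seen, 38 bins (1.57%) had a lower 5hmC level, and they are described only. They lay on 11 autosomes, 16 of them on chromosome 7, which held 143 of all 2413 bins. At least 3 vomeronasal receptor genes lay in 12 of the 38 bins and in 34 of all bins. Their mean 5hmC level was 0.0129, 0.0167 and 0.0163 in the 3 cerebellum libraries, 0.0153 on average, against 0.0271 in cortex and 0.0178 in olfactory bulb. Their mean 5mC level was 0.704 ± 0.0103 in cerebellum, 0.741 in cortex and 0.757 in olfactory bulb. The median share of masked repeats in these bins was 50.6%. Reads were mapped uniquely by the authors, and what repeats and near-identical gene copies add to these levels was not tested. A low level and the share of 5mC or unmodified C that escapes conversion in TAB-seq cannot be told apart here, since the spiked controls were not analysed. The authors also called each site by a binomial test, and whether sites that missed it entered a bin as 0 is not given in the sources used here.

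By the share of 5hmC in both modifications, the 5 highest bins included those of Ntm, Rbfox3, Rbfox1 and Cacna1a (27.3% to 30.8%). The 5 lowest ran from 1.80% to 1.95%. They were the Scgb2b15 and AA792892 bins and chr7:21000001-22000000, with 16 vomeronasal receptor genes, chr12:22000001-23000000 and chr7:33000001-34000000. The bin just outside was at 26.8% at the top and at 1.95% at the bottom.

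The highest 5mC levels mostly lay where genes are few. In chr4:71000001-72000000, with Gm11232 as its single protein-coding gene, 5mC was 0.850 and 0.836, and in chr10:48000001-49000000, with no protein-coding gene, 0.845 and 0.831. In chr14:91000001-92000000 it was 0.841 and 0.827. Genes covered 8.15%, 1.48% and 6.43% of these bins. The fourth, chr13:27000001-28000000 (0.841 and 0.825), differed in its genes, with 21 gene starts that include the prolactin family members Prl3a1, Prl7a2 and Prl7d1. The fifth was chr10:47000001-48000000 (0.840 and 0.824). The 5hmC level of the 5 bins was 0.0406 to 0.0585 and their rest 0.105 to 0.126, so the part that was not 5mC was mostly unmodified. The bin just outside was chr18:71000001-72000000 at 0.831 against 0.832 for the fifth. It lay mostly inside a gene, Dcc, with a gene cover of 74.6%.

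The least methylated bins were dense in genes and CpG sites. In chr10:80000001-81000000, with 53 gene starts, among them Gng7, a G protein subunit, and Dot1l, a histone H3 methyltransferase, 5mC was 0.429 and 0.412, 5hmC 0.133 ± 0.00524 and the rest 0.447 ± 0.0128. In chr8:84000001-85000000, with 39 starts and with Cacna1a, a calcium channel subunit of cerebellar neurons, and the transcription factor Nfix, 5mC was 0.446 and 0.428 and the rest 0.399 ± 0.0142. These bins were not poor in 5hmC, since both lay above its mean of 0.0987.
The third lowest was of another kind. In chr11:118000001-119000000, with 11 starts and with Rbfox3, the splicing factor known as the neuronal antigen NeuN, 5mC was 0.476 and 0.468 and 5hmC 0.202, 0.197 and 0.209, which made 30.1% of both modifications. Its 5mC level was 0.562 in cortex and 0.566 in olfactory bulb, where its 5hmC level was 0.204 and 0.216. In the 2 other bins, chr8:70000001-71000000 with Crtc1 and Ell and chr4:155000001-156000000 with Prkcz, Ski and Gnb1, 5mC was 0.478 and 0.489. The next bin was at 0.522.
By the unmodified rest, 3 of these bins were again among the 5 highest. They were joined by chr11:96000001-97000000, with 10 Hox genes beside Skap1, at 0.398 ± 0.00781, and by chr11:69000001-70000000, with 65 starts and with Polr2a and Chd3, at 0.378 ± 0.00506. The Hox bin differed from the others in its low 5hmC level of 0.0692 ± 0.00272 (SD, n = 3). The bin just outside was at 0.371.

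The lowest unmodified rest was found in bins that hold all or part of a long gene and have high levels of both marks. In chr5:132000001-133000000, with the start of Auts2, a gene of neuronal development, 5hmC was 0.22, 0.211 and 0.221, 5mC 0.751 and 0.735, and the rest 0.0399 ± 0.0124. In chr1:68000001-69000000, inside Erbb4, a neuregulin receptor, 5hmC was 0.143 ± 0.00688, 5mC 0.808 ± 0.0171 and the rest 0.0487 ± 0.0184. Next came chr5:131000001-132000000 with Auts2 and Galnt17 (0.0594), chr16:24000001-25000000 with Lpp (0.0659) and chr14:77000001-78000000 with Enox1 (0.0689). The bin just outside was chr2:141000001-142000000 in Macrod2 at 0.0717 ± 0.0124. Neighbours in this order differed by less than their errors, while the errors of the first bin and of the Enox1 and Macrod2 bins did not overlap. These errors hold an offset that bins share, since mean 5mC over all bins was 0.741 and 0.724 in the 2 oxBS-seq libraries. Their overlap therefore does not tell which bins differ. The CpG density of the named bins, 4.97 to 10 per kb, spanned the median of 8.08.

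**Figure D4:**
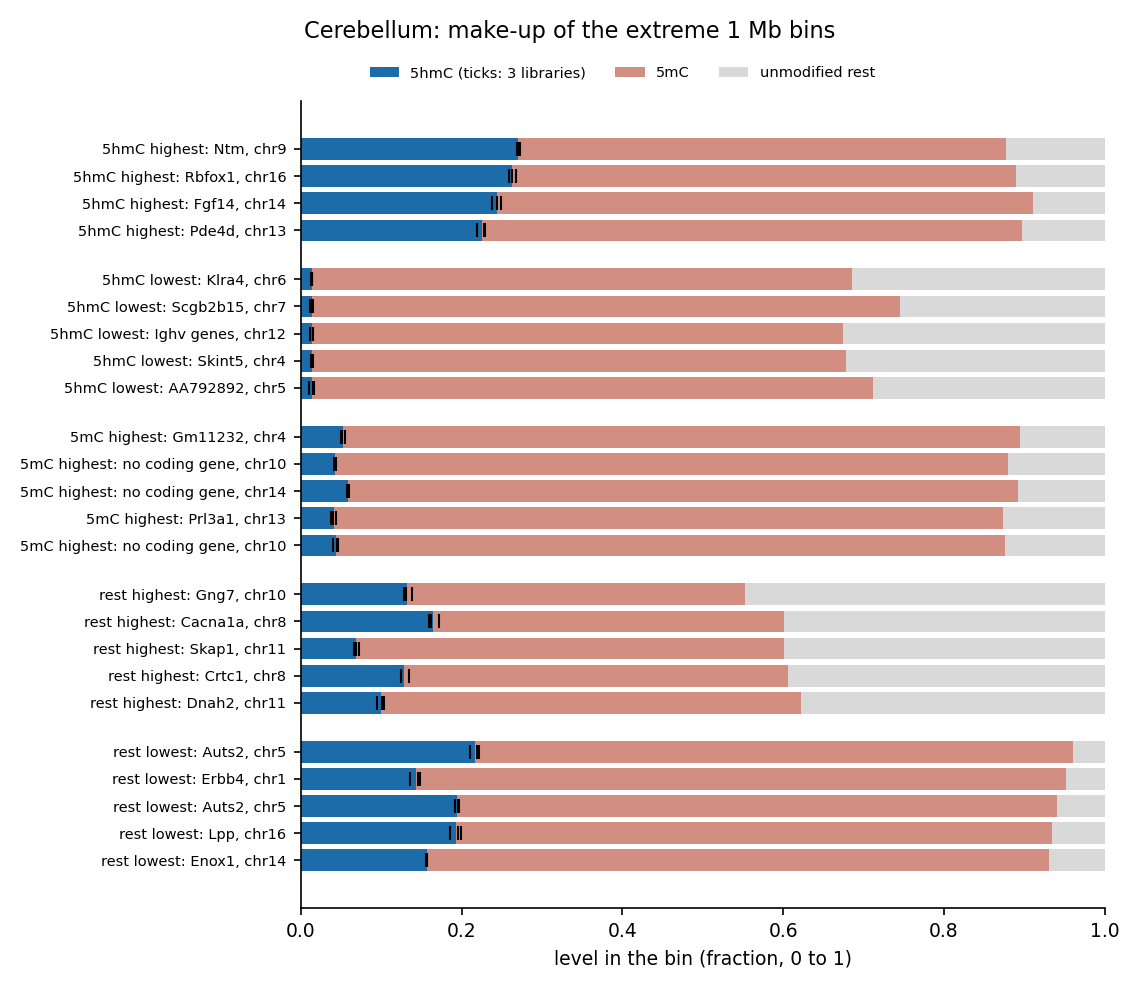
Make-up of the extreme bins of cerebellum in each of 5 rankings (4 bins highest in 5hmC, 5 in each other ranking), as stacked fractions of 5hmC, 5mC and unmodified rest that add to 1, with ticks for the 5hmC level of each of the 3 TAB-seq libraries and the leading gene of each bin. The bins highest in 5hmC keep a rest of 0.0894 to 0.122, while the bins lowest in 5hmC have a rest of 0.255 to 0.325.

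Gene groups were placed in the bins that hold the middle of their genes. A level given at a gene is that of its whole 1 Mb bin, which can differ from the level close to the gene. The 5mC level of the 1 Mb bin was 0.642 at Car8 and 0.798 at Foxp2. That of the 100 kb bins these genes overlap was 0.791 and 0.793 in cerebellum. All 13 bins of the 14 granule neuron genes were called higher in 5hmC (45.9% of all bins), and 10 of 13 lower in 5mC (41.4% of all). The highest was the bin of Cbln1, a synapse organizer that granule neurons secrete, with 0.180, 0.186 and 0.189, and the lowest that of the transcription factor gene Neurod1 with 0.113, 0.111 and 0.116. Every one thus lay above the autosomal mean of its library. The median over the group was 0.139 for 5hmC and 0.663 for 5mC, against 0.0968 and 0.741 over all bins. Its bins also had a median of 10 gene starts and a cover of 61.9%, against 5 and 52%, and the part of gene content in the result was not tested.
Of 12 Purkinje cell genes, 7 bins were called higher and 4 lower in 5hmC (45.9% and 48.5% of all bins), from 0.165 ± 0.00207 at Car8 to 0.0535 ± 0.00160 at the transcription factor gene Foxp2. Of 8 bins with genes of Bergmann glia and astrocytes, 5 were higher and 3 lower, from 0.156 at the glutamate transporter Slc1a2 to 0.0741 at the connexin gene Gja1. The 7 oligodendrocyte bins were all called lower in 5mC and in the sum (41.4% and 35% of all bins), with a median rest of 0.236, and their 5hmC ran from 0.0346 at Mog, a myelin surface protein, to 0.144 at Olig1 and Olig2. They had a median of 34 gene starts. Of 8 forebrain bins, 3 were higher and 5 lower in 5hmC, with 0.125 at Emx1, a homeobox gene of the telencephalon.

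The genes of both marks themselves lay mostly in bins with a high unmodified rest. Of 12 bins with methyltransferase, TET and methyl-CpG binding genes, Uhrf1 and Tdg, 10 were called lower in the sum (35% of all bins) and 2 higher. In 5hmC 7 were higher and 5 lower (45.9% and 48.5% of all bins). These bins had a median of 18.5 gene starts and 10.7 CpG sites per kb, against 5 and 8.08 over all bins. The part of gene content in the result was not tested. The lowest 5mC level was at Mbd3 (0.421 ± 0.0116), which lies in the least methylated bin, and the highest at Mbd2 (0.787 ± 0.00940). The 5hmC level ran from 0.0717 at the maintenance methyltransferase gene Dnmt1 to 0.157 at Mbd4. The bins of Tet1 (0.129), Tet2 (0.0785) and Tet3 (0.127) fell on both sides of the mean.
Of 20 bins with 22 genes of glutamate and GABA-A receptors, 12 were higher and 8 lower in 5hmC, against 45.9% and 48.5% of all bins. The highest was Grik2, a kainate receptor subunit, with 0.202, 0.204 and 0.207, and the lowest Grm5, a metabotropic receptor, with 0.0507, 0.0557 and 0.0540. The 5mC level ran from 0.489 ± 0.00467 at Gabrd, a GABA-A subunit of granule neurons, to 0.820 ± 0.0115 at Grm7. Receptor genes were thus found toward both ends of each mark.
The 20 bins with very long genes, many but not all of them neuronal, were all called higher in the sum (55.2% of all bins). The rest was thus below the mean in each of these bins, from 0.0594 at Auts2 to 0.161. Their split between the marks differed widely. In 5hmC 13 bins were higher and 7 lower (45.9% and 48.5% of all bins), with 0.263 ± 0.00451 at Rbfox1 and 0.0451 ± 0.00145 at Sgcz, a sarcoglycan gene. In 5mC 15 were higher and 4 lower (52.8% and 41.4% of all bins), with 0.627 at Rbfox1 and 0.807 at Nrg3, which encodes a neuregulin. At Ptprd, a receptor phosphatase, 5hmC was 0.0567, 0.0570 and 0.0588, and at Lsamp, an IgLON adhesion molecule, 0.197, 0.188 and 0.195, although genes covered a median of 99.4% of the bins of the group.

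Families of clustered genes were counted in bins with at least 3 members. The vomeronasal receptor bins (34) were mostly low in both marks, with 31 lower in 5hmC (48.5% of all bins), 24 lower in 5mC (41.4% of all) and 28 lower in the sum (35% of all). Their median levels were 0.0289 of 5hmC, 0.698 of 5mC and 0.263 unmodified. Of 62 olfactory receptor bins, 44 were lower in 5hmC (48.5% of all bins) and 48 lower in the sum (35% of all bins). In 5mC, 33 were lower and 28 higher, against 41.4% and 52.8% of all bins. Their 5hmC level ran from 0.0143 to 0.160, so the family was not uniform.
Of 37 bins with zinc finger genes named Zfp, 36 were lower in the sum (35% of all bins) and 25 lower in 5hmC (48.5% of all bins), with a median rest of 0.246. The 4 Hox bins, which hold the homeobox genes of the body axis, were all lower in 5mC and in the sum (41.4% and 35% of all bins). Their median 5mC level was 0.568 and their median rest 0.328. The clustered protocadherin bin, whose genes encode neuronal adhesion molecules, had 0.0724 of 5hmC and 0.606 of 5mC, and was called lower in both. The 4 defensin bins, with genes of antimicrobial peptides, were all lower in 5mC and in the sum (41.4% and 35% of all bins). Of 7 keratin bins 4 were higher and 2 lower in 5hmC (45.9% and 48.5% of all bins).

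The dependence on gene content was set against that of the other tissues, with each value computed per library and the 3 cerebellum libraries tested against the 6 of cortex and olfactory bulb (two-sided exact permutation test, adjusted over 8 values of both assays). The 5hmC level of genic bins over that of gene-poor bins was 2.78, 2.63 and 2.67 in cerebellum, 1.60 to 1.64 in cortex and 1.78 to 1.88 in olfactory bulb. The 3 cerebellum libraries lay above all 6 others, a difference of 0.975 (exact permutation test, p = 0.0238, the smallest possible, adjusted 0.0476). The slope of 5hmC on gene cover was 0.100, 0.0979 and 0.102 in cerebellum, 0.0836 to 0.0911 in cortex and 0.0862 to 0.0924 in olfactory bulb, higher by 0.0113 (exact permutation test, p = 0.0238, adjusted 0.0476). The ratio thus differed more than the slope, at a mean 5hmC level in cerebellum of 0.0987 against 0.169 and 0.150.
The coefficient of variation of 5hmC over bins was 43.3% ± 0.575 in cerebellum, 23.9% ± 0.386 in cortex and 30.0% ± 0.973 in olfactory bulb (SD, n = 3 each), higher in cerebellum by 16.3 percentage points (exact permutation test, p = 0.0238, adjusted 0.0476). Without any 1 of the cerebellum libraries, p was 0.0714 for each of the 4 values of 5hmC, the smallest that 2 against 6 libraries allow (exact permutation test).
Long-gene and gene-dense bins differed less in 5hmC in cerebellum and more in 5mC. The 5hmC difference was 0.0243, 0.0224 and 0.0224, below the 0.0475 to 0.0513 of cortex and the 0.0602 to 0.0624 of olfactory bulb, a difference of -0.0324 (exact permutation test, p = 0.0238, adjusted 0.0476). The 5mC difference was 0.0957 and 0.0942 in cerebellum, 0.0446 to 0.0470 in cortex and 0.0518 to 0.0545 in olfactory bulb. The libraries did not overlap, but 2 against 5 cannot give a p below 0.0952 (exact permutation test, p = 0.0952, adjusted 0.127). For 5mC, the ratio of genic to gene-poor bins (0.908 in cerebellum, 0.881 in the others) did not overlap either, with the same p, and the slope on gene cover (-0.122 and -0.130) and the coefficient of variation (8.31% and 7.90%) overlapped (exact permutation test, p = 0.190 each). The correlation between both marks across bins had overlapping ranges, -0.592 to -0.561 in cortex, -0.595 to -0.562 in olfactory bulb and -0.599 to -0.577 in cerebellum, and was not tested.

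**Figure D5:**
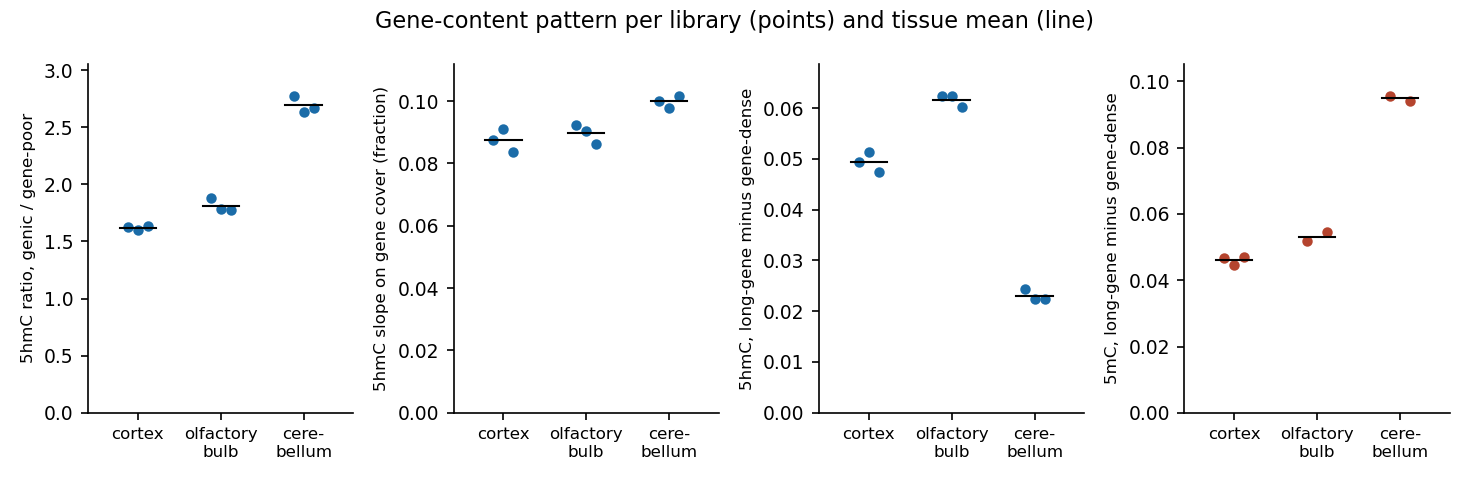
Values per library (points) and tissue mean (line) of the 5hmC ratio of genic to gene-poor bins, the 5hmC slope on gene cover (fraction), and the difference between long-gene and gene-dense bins (fraction) in 5hmC and in 5mC. Cerebellum lies above both other tissues in all panels but the 5hmC difference, where it lies below, at 0.0231 against 0.0494 and 0.0617.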

How the data were processed

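Genomic DNA of 5 cerebellum libraries was compared, with 11 libraries of cortex and olfactory bulb as a reference. Bismark was used by the authors for unique mapping to mm10, sites were called with a binomial model, and a level per bin and library was deposited as a fraction from 0 to 1 without depth. How site levels were merged into a bin, and whether a site that missed the call counted as 0, is not given in the sources used here, and both bear on the levels and the rest. Levels of exactly 0 or 1 were dropped with their bin, and 100 kb bins of 5mC were averaged without weights into 1 Mb bins.

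Groups were taken from the labels. Fractions minus the autosomal mean of the same library were fitted with limma 3.58.1 (R 4.3.3), with 1 coefficient per assay, their sum as a contrast and Benjamini-Hochberg adjustment over all bins or chromosomes. The fit was tested on simulated data with 200 changed bins. Tissues were compared by exact permutation tests. Gene cover (all GENCODE M21 genes), starts of protein-coding genes, CpG sites and masked repeats came from GRCm38 (Python 3.11.15, pandas 2.3.3). P-values measure the spread between these libraries, which the main limma fits pooled over all bins or all chromosomes. The members, gene lists, classes and tests were chosen with earlier results of these data known. Bins were named as the 5 highest and 5 lowest in 5hmC, 5mC, rest and 5hmC share, chromosomes as the 2 highest and 2 lowest, and list members by their highest and lowest level, with genes chosen after their values were seen only where a pattern is illustrated (Fat2, Ptprd, Lsamp, the Tet genes). Alternatives were other weights, filters, scales, centring, fits, gene annotations and blocks, and leaving out each library. RNA-seq libraries were not analysed here, and values of a few named genes and 1 bin are not reported here.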

Additional observations from a re-analysis of the deposited data

Results flagged for a closer look

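Differences between tissues in the same contrast over gene content stood out for 5hmC in 3 values. The ratio of genic to gene-poor bins was higher in cerebellum than in cortex and olfactory bulb by 0.975, in 3 of 3 cerebellum libraries against all 6 others (two-sided exact permutation test, p = 0.0238, adjusted 0.0476). The slope of 5hmC on gene cover was higher by 0.0113, also in 3 of 3 libraries (exact permutation test, p = 0.0238, adjusted 0.0476). The difference between long-gene and gene-dense bins was smaller by -0.0324, again in 3 of 3 libraries (exact permutation test, p = 0.0238, adjusted 0.0476). The comparison pools cortex and olfactory bulb, whose own values are given apart above, and the mean 5hmC level was lower in cerebellum (0.0987 against 0.169 and 0.150), whose part in the ratio was not tested.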

How the results depend on the processing

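Over 39 results, 327 alternatives were computed, of which 293 kept the direction and the side of the threshold or moved by less than the spread between libraries, 18 moved, 16 lost the threshold and none reversed a result; the 2 sign changes of single chromosomes once gene cover was taken out, and that under CpG weights, stand in the report. With a minimum deviation of 0.02 the bins called higher were 731 for 5hmC and 783 for the sum, which counted as moved. The bins called lower in 5hmC went from 1171 to 814, which did not count as moved. Weighted by CpG count, the autosomal means were 0.107 for 5hmC, 0.709 for 5mC and 0.184 for the rest. With protein-coding genes only, genic minus gene-poor bins was 0.0809 for 5hmC and -0.0708 for 5mC, and long-gene minus gene-dense bins was 0.0242, 0.0962 and -0.12 for 5hmC, 5mC and the rest. With the median over bins, the first difference was 0.0803, -0.0436 and -0.0367 and the second 0.00981, 0.111 and -0.121. With no minimum number of 100 kb bins the highest 5mC level was 0.863, and the 5 lowest 5hmC bins chosen on replicate 1 had a mean of 0.0155 in the other libraries. The cause of these shifts was not tested.

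Leaving out 1 library in turn, the differences of cerebellum from the other tissues in 5hmC ran from 0.933 to 1.01 for the ratio, 0.0103 to 0.0123 for the slope, 15.6 to 17.2 percentage points for the coefficient of variation and -0.0341 to -0.0311 for long-gene minus gene-dense bins. Without 1 cerebellum library p was 0.0714, the smallest that 2 against 6 allow. The replicate numbers were not taken to pair libraries, since no source ties them to a mouse and the deviations of libraries with the same number correlated with r = -0.0317 and 0.0861 across bins. With the replicate block of the labels, 1100 bins were higher and 1162 lower in 5hmC, and with the numbers of the library names 1099 and 1160. As a replicate block between tissues, the same 4 differences were 0.975, 0.0113, 16.3 and -0.0324 with p = 0.25 each (exact permutation test, the smallest that 3 pairs allow). The block moved no count by over 1.5 times. Depth is unknown, so levels near 0.0134 cannot be given a counting error.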
